A study of Mus musculus with 30 samples.

Results

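Of 17669 peaks of histone lysine crotonylation (Kcr) called in control neural stem and progenitor cells (NSPCs), 2557 (14.5%) were kept, which here means that they touched, by 1 bp or more, a Kcr peak of the crotonate-treated culture and a Kcr peak of the MS-275-treated culture. These 2557 regions, called kept Kcr peaks below, were chosen by measured values, the Kcr peak calls of 3 lists, so their presence in those lists and their Kcr widths are descriptions and support nothing. The remaining control peaks were met in the crotonate list only (9345), in the MS-275 list only (457) or in neither (5310). NSPCs came from the E13.5 forebrain of C57BL/6 mice, were grown with EGF and FGF at 20 ng/ml, and received DMSO (the control), 10 mM crotonate or 1 µM MS-275 over 24 h. Chromatin immunoprecipitation (ChIP) with antibodies to crotonylated (Kcr) and acetylated (Kac) lysine on histones gave 1 library and 1 peak list per antibody and treatment. RNA was sequenced in 4 libraries per treatment, which the labels call replicates. Untreated E13.5 forebrain of C57BL/6 mice gave 1 list each for H3 crotonylated (H3K9cr) or acetylated (H3K9ac) at lysine 9 and 1 RNA library, and E13.5 forebrain explants of ICR mice, 3 control and 3 with crotonate, gave the authors' table of RNA fold changes. With 1 library per list no overlap of peaks could be tested, and the NSPC lists hold positions without heights, so a kept peak says that a peak was called, not that the signal was unchanged.

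Histone crotonylation is a short-chain acylation of lysine that is written by some of the enzymes that also acetylate histones, p300 among them, from crotonyl-CoA. It is removed mainly by the class I deacetylases, the enzymes that MS-275 (entinostat) inhibits, and added crotonate feeds the pool of crotonyl-CoA. The mark is found at active promoters and enhancers beside acetylation of many cell types.

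The sequences below are those of the microRNAs and promoters that the results return to. The longest run of kept Kcr peaks surrounded the gene of miR-9, a microRNA of neural progenitors that is abundant in the developing forebrain, and 2 kept peaks lay within 10 kb of the let-7e and miR-125a genes. These microRNAs were chosen after the peaks were seen. The mature sequences are from RefSeq (GRCm38.p6), and capitals mark the seed, bases 2 to 8.
miR-9-5p: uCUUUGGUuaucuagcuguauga
miR-9-3p: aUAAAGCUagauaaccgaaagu
let-7e-5p: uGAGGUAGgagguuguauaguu
miR-125a-5p: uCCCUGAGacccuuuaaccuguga
No seed is shared among these 4.

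For 6 of the genes named for the size of their RNA change, the promoter shows on which side of the start the kept peak lies. Each sequence runs from 250 bases before to 30 bases after the start, from RefSeq on GRCm38.p6, and capitals mark the bases inside the kept control Kcr peak. They are Atp9a (chr2:168741771-168742050, minus strand), Fabp3 (chr4:130308488-130308767, plus strand), Tox2 (chr2:163203936-163204215, plus strand), Aldoc (chr11:78322823-78323102, plus strand), Birc5 (chr11:117848987-117849266, plus strand) and Prr18 (chr17:8340489-8340768, plus strand).
Atp9a: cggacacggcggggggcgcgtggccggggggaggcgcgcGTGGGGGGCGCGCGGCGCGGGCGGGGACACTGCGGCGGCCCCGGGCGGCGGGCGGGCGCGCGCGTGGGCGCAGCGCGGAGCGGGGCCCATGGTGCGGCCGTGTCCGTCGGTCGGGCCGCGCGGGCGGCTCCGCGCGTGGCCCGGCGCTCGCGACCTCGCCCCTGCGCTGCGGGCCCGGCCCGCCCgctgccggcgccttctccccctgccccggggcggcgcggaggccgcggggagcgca
Fabp3: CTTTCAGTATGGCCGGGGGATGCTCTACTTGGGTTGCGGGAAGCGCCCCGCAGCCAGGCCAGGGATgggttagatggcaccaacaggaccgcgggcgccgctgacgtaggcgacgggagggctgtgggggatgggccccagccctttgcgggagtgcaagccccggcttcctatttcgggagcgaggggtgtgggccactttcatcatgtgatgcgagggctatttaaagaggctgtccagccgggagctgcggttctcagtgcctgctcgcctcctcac
Tox2: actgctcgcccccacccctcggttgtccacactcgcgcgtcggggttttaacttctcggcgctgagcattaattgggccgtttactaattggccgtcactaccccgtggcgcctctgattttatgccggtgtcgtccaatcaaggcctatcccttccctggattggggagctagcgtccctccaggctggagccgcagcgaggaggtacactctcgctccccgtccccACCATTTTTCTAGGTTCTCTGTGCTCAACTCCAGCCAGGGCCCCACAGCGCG
Aldoc: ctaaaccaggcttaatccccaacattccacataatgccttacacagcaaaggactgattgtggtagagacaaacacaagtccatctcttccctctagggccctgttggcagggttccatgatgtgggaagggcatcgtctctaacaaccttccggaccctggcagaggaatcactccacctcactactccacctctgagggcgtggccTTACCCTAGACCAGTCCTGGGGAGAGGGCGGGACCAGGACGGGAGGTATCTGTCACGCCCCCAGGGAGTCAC
Birc5: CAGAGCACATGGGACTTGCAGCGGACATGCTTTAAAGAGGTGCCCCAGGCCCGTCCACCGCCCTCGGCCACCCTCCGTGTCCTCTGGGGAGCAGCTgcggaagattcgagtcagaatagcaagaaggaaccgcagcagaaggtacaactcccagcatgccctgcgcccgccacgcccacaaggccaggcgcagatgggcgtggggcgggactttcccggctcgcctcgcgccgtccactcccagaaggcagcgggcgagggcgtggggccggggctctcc
Prr18: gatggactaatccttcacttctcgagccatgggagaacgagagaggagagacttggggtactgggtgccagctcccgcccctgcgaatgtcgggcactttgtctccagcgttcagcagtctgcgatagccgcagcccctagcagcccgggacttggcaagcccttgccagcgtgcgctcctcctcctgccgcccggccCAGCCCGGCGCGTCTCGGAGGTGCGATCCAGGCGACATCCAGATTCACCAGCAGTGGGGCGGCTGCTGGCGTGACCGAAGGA
In Atp9a, Birc5 and Fabp3 the capitals lie before the start, and in Tox2, Aldoc and Prr18 the peak opens near the start and runs into the gene. The kept peaks of Dnm1 and Atp5b lay outside their windows, that of Ap4s1 opened after the printed bases, and the window of Ckb held 75 peak bases.

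Kept Kcr peaks were wide in the control. Their median width was 399 bp, beside 299 bp for peaks met with crotonate only, 259 bp with MS-275 only and 225 bp for peaks met in neither list. Of the 7386 control peaks under 250 bp 6.63% were kept, and of the 188 peaks of 1000 bp or more 61.2% were. At the kept sites the Kcr peak had a median width of 469 bp in the crotonate list and 307 bp in the MS-275 list, and 57.6% of the sites were wider with crotonate than in the control while 34.5% were wider with MS-275. The peaks of the crotonate list covered a median of 87.3% of a kept peak and those of the MS-275 list 62.2%. A wide peak can meet another by position alone, and the part of width in the share kept was not tested.

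**Figure D1:**
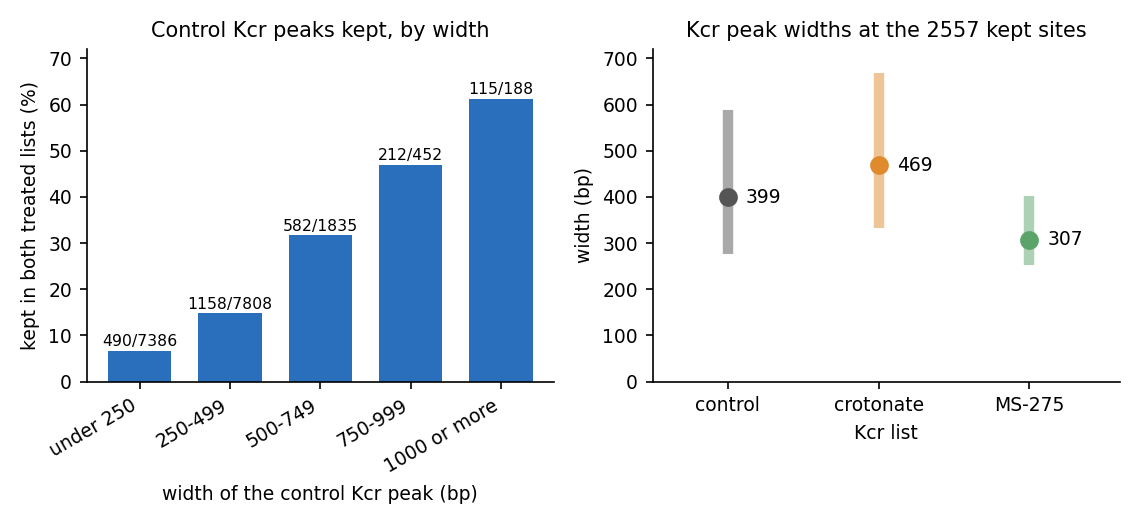
Left, percent of control Kcr peaks kept in both treated lists (vertical axis) by the width of the control peak in bp, with the number kept over the number in the class above each bar. Right, width in bp of the Kcr peaks at the 2557 kept sites in the 3 Kcr lists, where the point is the median and the thick bar runs from the lower to the upper quartile. The share kept runs from 6.63% to 61.2%, and the median width is 399 bp in the control, 469 bp with crotonate and 307 bp with MS-275.

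The treated lists differed in length. The crotonate Kcr list held 23301 peaks, of which 11.9% touched a kept peak, and the MS-275 Kcr list held 5845, of which 43.5% did. The number of reads behind each list is unknown, so the short MS-275 list, which limits how many peaks could be kept, and the depth of its library cannot be told apart. On chromosome X 1 of 87 control Kcr peaks was kept, and the MS-275 Kcr list held 2 peaks there. On the autosomes the share kept ran from 10.8% (chromosome 14) to 17.5% (chromosome 15). At the edge of the rule, 2 kept peaks met a treated peak by 1 bp, one at the start of Hipk3 in the MS-275 list and the other near Pcdh7 in the crotonate list, and 46 met one by 20 bp or less. Outside it, 2 control peaks missed by a gap of 1 bp and 40 by 20 bp or less.

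Acetylation, which the rule did not use, was found at nearly every kept Kcr peak. In the control 2374 kept peaks (92.8%) touched a Kac peak, with crotonate 2329 (91.1%) and with MS-275 1205 (47.1%). The corresponding shares were 87.7%, 77.0% and 21.8% for peaks met with crotonate only, and 63.2%, 43.6% and 11.5% for peaks met in neither list. All 3 Kac lists met 1103 kept peaks (43.1%), beside 18.2% of those met with crotonate only, and 45 kept peaks (1.76%) met no Kac peak in any list. Among control peaks under 250 bp 33.7% of those kept and 14.6% of those met with crotonate only touched a Kac peak of the MS-275 list, and among those of 1000 bp or more the shares were 79.1% and 55.4%, so the order held in the narrowest and in the widest class. The Kac and Kcr lists of 1 treatment come from the same kind of culture, and no test of these shares is possible with 1 library each.

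**Figure D2:**
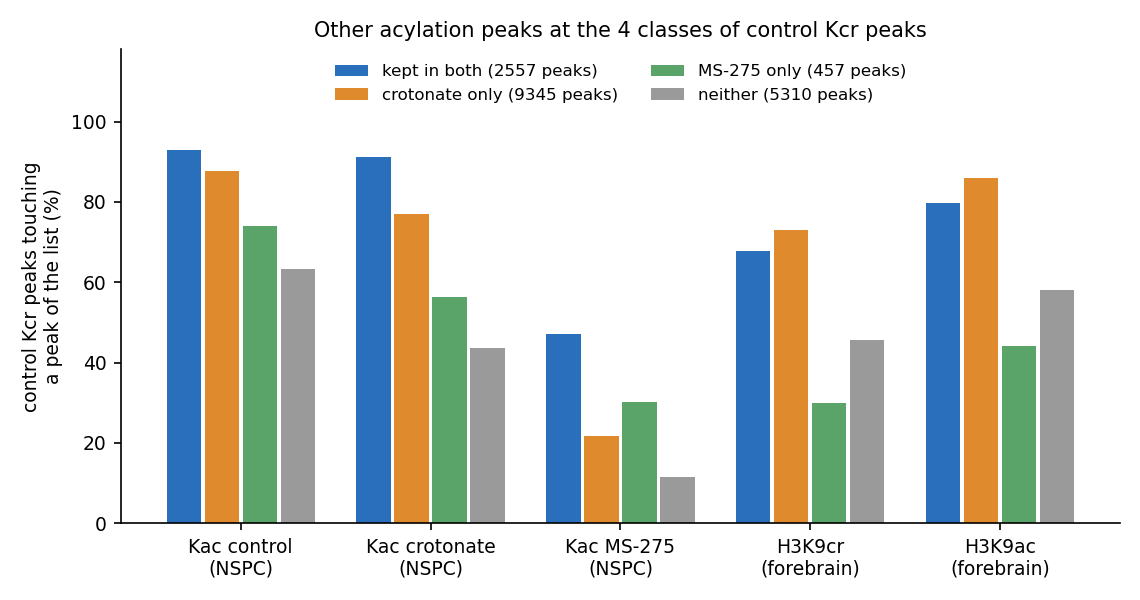
Percent of control Kcr peaks (vertical axis) that touch a peak of each of 5 other lists (horizontal axis), for the 4 classes of control Kcr peaks, kept in both treated lists, met with crotonate only, met with MS-275 only and met in neither. Kept peaks have the tallest bar in the 3 Kac lists of NSPCs (92.8%, 91.1% and 47.1%), while in the forebrain lists peaks met with crotonate only are taller (73.1% against 67.7% for H3K9cr and 85.9% against 79.6% for H3K9ac).

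In the forebrain, tissue that was neither cultured nor treated, the order of the classes was another. Of the kept peaks 1732 (67.7%) touched an H3K9cr peak and 2036 (79.6%) an H3K9ac peak, below the 73.1% and 85.9% of the peaks met with crotonate only and above the 45.7% and 58.1% of those met in neither list. Within 1 kb of a gene start the shares over H3K9cr were 84.2% for kept peaks and 85.0% for crotonate only, and farther than 5 kb from any start they were 42.4% and 48.4%. The authors' fold enrichment of the H3K9cr peak had a median of 11.2 at kept peaks and 11.3 at those met with crotonate only. The strongest forebrain H3K9cr peaks that met a kept peak lay in Actb (a cytoskeletal actin), where the fold was 61.0 over a kept peak at chr5:142906955-142907493, in Tardbp (an RNA-binding protein, fold 49.9, chr4:148626384-148626709), in Atf4 (a stress-response transcription factor, fold 47.9), where 2 kept peaks of 333 and 172 bp met the same forebrain peak, and in Hexim2 (an inhibitor of transcription elongation, fold 47.4, chr11:103132119-103132848). The second strongest (fold 56.0) lay on chromosome 18 and is not described. At Atf4 the narrower kept peak met no Kac peak of any of the 3 NSPC lists, and its neighbour met Kac in the control and with crotonate.

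The share of kept peaks near gene starts was close to that of all control Kcr peaks. By RefSeq starts on GRCm38.p6, 1488 kept peaks (58.2%) came within 1 kb of a listed start and 335 (13.1%) covered one, beside 56.8% and 7.56% of all control Kcr peaks and 64.7% and 8.67% of those met with crotonate only. A further 212 lay between 1 and 5 kb of a start, 769 (30.1%) were farther than 5 kb, of which 512 were inside a gene's extent and 257 outside any, and 88 were on chromosome 18, where no starts were listed. The table of starts is not complete, so the counts near a start are lower limits and those far from any start or outside any gene are upper limits. A gene's extent was touched by 81.3% of kept peaks and 78.9% of all control Kcr peaks. Near starts the centres of 70.8% of kept peaks lay downstream. Over all kept peaks within 1 kb of a start, upstream ones included, the median centre was 221 bp into the gene, with quartiles at -105 and 373 bp. The same median was 194 bp for crotonate only and 157 bp for neither.

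The widest kept peaks were found in or beside Myh9 (a non-muscle myosin heavy chain, 2038 bp, chr15:77813884-77815921), Vash1 (an inhibitor of angiogenesis, 1974 bp, chr12:86678746-86680719) and Zc3h4 (a regulator of noncoding transcription, 1856 bp, chr7:16400287-16402142), besides 1 of 2365 bp on chromosome 18 and 1 of 1754 bp downstream of Mir9-1. Kept peaks of 1724 bp near Sox8, of 1708 bp at Sox6 and of 1686 bp in Nfkb1 followed. At Myh9 the MS-275 peak was 308 bp wide and covered 227 bp of the kept peak, and at Zc3h4 229 bp of 1856 bp were covered. At Vash1 the crotonate list held 5 peaks over the kept peak and the MS-275 list 2. These 3 sites were thus wide in the control and short or split in the MS-275 list. The Myh9 peak met no forebrain H3K9cr peak, and that at Zc3h4 met one with a fold of 39.5.

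Some kept peaks lay in runs. Runs were not counted for the other control Kcr peaks, so whether kept peaks gather more than those was not tested. When neighbours with at most 10 kb between them were joined, 774 kept peaks (30.3%) fell into runs of 2 or more, 66 runs held 3 or more, and 1783 kept peaks stood alone. The longest run had 10 kept peaks on chr3:88211279-88241925, 30647 bp that hold the Mir9-1 hairpin (chr3:88215598-88215686, plus strand). Of 27 control Kcr peaks in this span 10 were kept, 4 before the hairpin and 6 after it, with widths from 172 to 1754 bp, and the nearest ended 1723 bp before its first base. The MS-275 list held 7 Kcr peaks in the span, together 3123 bp, against 22 peaks of 9712 bp with crotonate and 10327 bp in the control. The Kac lists held 24 peaks in the control, 24 with crotonate and 13 with MS-275. In the forebrain the hairpin lay inside an H3K9cr peak of 16534 bp and an H3K9ac peak of 25173 bp.

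**Figure D3:**
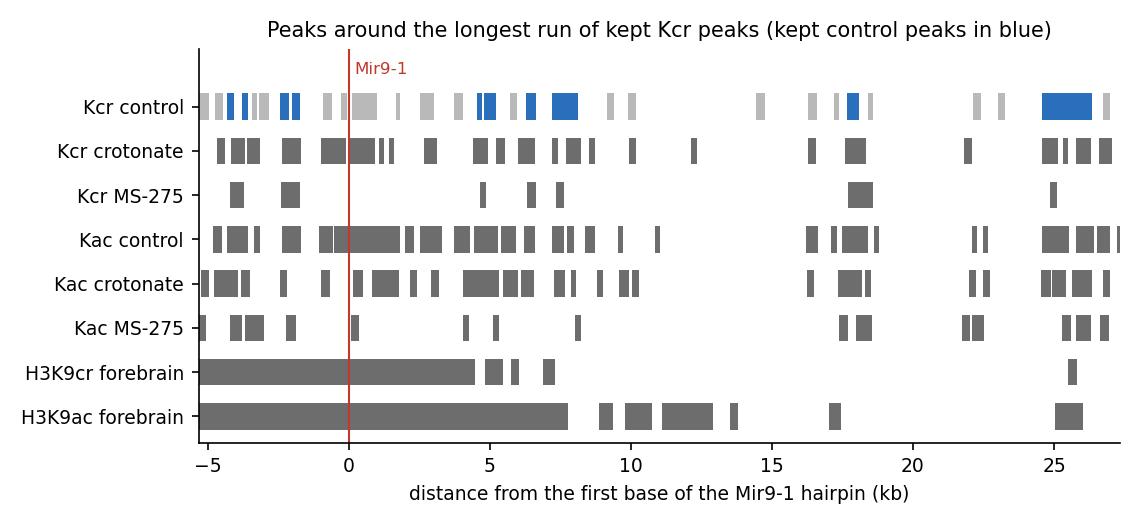
Peaks of the 8 lists (rows) along the run of 10 kept Kcr peaks, as distance in kb from the first base of the Mir9-1 hairpin (red line). Kept control peaks are blue, other control Kcr peaks light grey and peaks of other lists dark grey, and boxes are drawn to scale and clipped at the edges. Each of the 7 boxes of the MS-275 Kcr row meets a blue one, and the forebrain rows are covered by 1 wide peak at the hairpin.

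The 3 genes that give the same mature miR-9 differed in kept peaks. Within 10 kb of the hairpin Mir9-1 had 8 kept of 26 control Kcr peaks, Mir9-3 on chromosome 7 had 3 of 16, and Mir9-2 on chromosome 13 had none of 8, its nearest kept peak lying 21650 bp away. The MS-275 list had 5, 4 and no Kcr peaks in these windows. The long noncoding RNA Gm3764, which starts beside Mir9-1, was read at 984, 1001, 967 and 1011 TPM in the controls (an RNA abundance corrected for gene length and library size), 1353, 1481, 1471 and 1421 TPM with crotonate and 1407, 1389, 1419 and 1369 TPM with MS-275. All treated libraries were above all controls. The log2 fold change was 0.53 with crotonate (SE 0.03, limma adjusted p = 8.0e-08) and 0.49 with MS-275 (SE 0.03, limma adjusted p = 3.3e-08), and over the alternatives it stayed between 0.39 and 0.58. C130071C03Rik, the noncoding RNA of the Mir9-2 locus, stood at 75.9 ± 3.33 TPM in the controls, 87.0 ± 4.91 TPM with crotonate and 94.7 ± 4.86 TPM with MS-275 (SD, n = 4 each). Mature microRNAs were not measured, and both RNAs were chosen after their values were seen. Of 1005 hairpins with a position 10 touched a kept peak and 70 had one within 10 kb.

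Of the 13 other runs of 4 or more kept peaks some lay at named genes. A run of 5 kept peaks among 13 control peaks covered 15994 bp near Sox8, a SoxE transcription factor of the oligodendrocyte lineage, and 4 kept peaks lay over 10602 bp at Nkx2-2, which specifies ventral progenitors. Kbtbd11 had 5 kept peaks, Ramp1 (a receptor activity-modifying protein), Zmynd8 (a chromatin reader) and Septin9 (a septin) had 4 each. The RNA of Zmynd8 was read at 51.9, 58.4, 43.0 and 55.0 TPM in the controls, 77.2, 66.7, 72.3 and 72.8 TPM with crotonate and 83.9, 74.0, 68.9 and 71.0 TPM with MS-275, above all controls in each treated library. It rose by 0.47 (SE 0.09, limma adjusted p = 8.3e-04) and 0.51 (SE 0.09, limma adjusted p = 2.4e-04) on the log2 scale. Sox8 stood at 71.6 ± 7.89, 74.7 ± 2.54 and 61.1 ± 7.21 TPM (SD, n = 4 each). Its groups overlapped, and the MS-275 difference of -0.23 (limma adjusted p = 0.0358) did not hold under every alternative (limma adjusted p up to 0.121).

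The promoters at kept peaks were rich in CpG, as were those at the other Kcr peaks. Over 1896 promoters of 300 bases with a kept peak within 1 kb the median ratio of observed to expected CpG was 0.805, beside 0.820 at crotonate only, 0.801 at neither, 0.260 where no control Kcr peak lay and 0.383 over all 32817 promoters. The share with a ratio of 0.6 or more was 77.9% at kept peaks, 81.8% at crotonate only and 35.8% over all. The ETS string CCGGAAG, on either strand, was found in 13.6% of promoters with a kept peak, 19.4% with crotonate only, 23.6% with neither and 8.86% of all. The GC box GGGCGG was in 68.3% of kept promoters and 35.6% of all, the CRE string TGACGTCA in 3.53% and 1.79%, the E-box CACGTG in 9.70% and 7.15%, CCAAT in 32.4% and 37.4%, and the TATA string TATAAA in 5.33% and 13.6%. Promoters with crotonate only were close to the kept ones, at 68.6%, 3.40%, 9.94%, 34.6% and 5.55% for these strings in the same order. Matches of different strings may overlap and were counted separately, and a match is not a bound site. Among the printed promoters GGGCGG or its complement is in Atp9a, Aldoc, Birc5 and Prr18, CCGGAAG is in Aldoc, and CCAAT is in Tox2.

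RNA was compared at 1604 genes with a kept peak within 1 kb of a start. Of these 1389 (86.6%) had 1 TPM or more in 4 or more of 12 NSPC libraries and were tested, so the other 215 are not described by the counts that follow. Kept peaks thus marked 12.7% of the tested genes that had a listed start. The median control level of the tested genes was 28.5 TPM, beside 17.0 TPM for all 14857 tested and 31.2 TPM for genes with a peak met with crotonate only. The cultures carried all 8 markers of neural stem and progenitor cells, at summed levels of 9671 to 10194 TPM in the controls, 9024 to 9926 TPM with crotonate and 13630 to 14276 TPM with MS-275. That sum was mostly Vim (group means of 3671, 3459 and 5970 TPM) and Fabp7 (4946, 5005 and 6898 TPM). The means of Nes (367, 248 and 254 TPM), Pax6 (24.7, 20.3 and 15.5 TPM) and Hes5 (11.1, 7.84 and 7.70 TPM) were lower with both treatments. With MS-275 the mean of Sox9 was higher (81.8 to 103 TPM), and Sox2 and Slc1a3 stayed near the control. Every marker of microglia (5), endothelium (4), erythroid cells (3) and choroid plexus (3) was under 1 TPM in the controls. The 5 markers of the oligodendrocyte lineage summed to 1079 to 1265 TPM in the controls, 1205 to 1424 TPM with crotonate and 2183 to 2430 TPM with MS-275, the 4 of astrocytes to 47.5 to 58.6, 79.6 to 88.1 and 94.3 to 120 TPM, and the 6 of neurons to 313 to 334, 281 to 308 and 379 to 396 TPM. The neuronal sum was mostly Map2 (group means of 303, 244 and 318 TPM), and the means of the other 5 neuronal markers were higher with both treatments, Tubb3 standing at 11.8 ± 1.16, 16.1 ± 1.48 and 29.0 ± 2.05 TPM (SD, n = 4 each). The part of these shifts in the RNA differences was not tested, and in bulk RNA fewer cells of a type and less RNA per cell cannot be told apart.

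With crotonate 432 of the 1389 genes rose (31.1%, where 32.3% of all tested genes did) and 277 fell (19.9%, where 15.9% of all did), by limma at an adjusted p of 0.05. With MS-275 469 rose (33.8%, 37.4% of all) and 495 fell (35.6%, 27.6% of all). In either direction 48.1% of all tested genes were called with crotonate and 65.1% with MS-275. The shares that rose were near those of all genes, and those that fell lay above them, which was not tested. Of genes with a peak met with crotonate only, 25.5% rose and 22.1% fell with crotonate, and 30.7% and 37.6% with MS-275. Of genes with a peak met in neither list the shares were 22.7% and 25.4%, and 27.7% and 39.6%. Beside both classes genes with a kept peak rose more often and fell less often, which was not tested either. Genes without any control Kcr peak at a start rose more often, 45.5% of 4084 with crotonate and 52.0% with MS-275, at a median control level of 6.68 TPM. Large increases, here called and at least 2-fold on the log2(TPM + 1) scale, were fewer among genes with a kept peak than among all. They were met in 37 genes (2.66%) with crotonate and 79 (5.69%) with MS-275, beside 6.15% and 10.9% of all. The added 1 shrinks ratios at low TPM, and the classes differ in level. Falls of that size were met in 0 genes with crotonate and 26 (1.87%) with MS-275, beside 0.114% and 2.53% of all. Increases of that size were met in 1.54% and 3.70% of genes with a peak met with crotonate only. The shares were 1.36% and 3.90% for those met in neither list. The median log2 fold change was 0.05 with crotonate and -0.01 with MS-275, beside 0.09 and 0.08 over all genes. Crotonate and MS-275 were compared with the same 4 controls, so their counts are not independent of each other.

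The split into higher and lower depended on how libraries were scaled. With median-of-ratios scaling, the log2 fold change of the median gene went from 0.09 to -0.03 with crotonate and from 0.08 to -0.01 with MS-275. Among called genes with a kept peak the share that was higher then went from 60.9% to 34.1% with crotonate (261 higher, 505 lower), and from 48.7% to 37.5% with MS-275 (366 and 611). Of the genes with a kept peak 18.8% were then higher and 36.4% lower with crotonate, where 23.5% and 28.4% of all tested genes were, and 26.3% and 44.0% with MS-275, where 31.5% and 34.3% of all were. Quantile normalization gave 45.4% (309 and 372) with crotonate and 42.9% (409 and 545) with MS-275. The shares were 22.2% higher and 26.8% lower with crotonate (20.8% and 24.8% of all), and 29.4% and 39.2% with MS-275 (29.6% and 34.1% of all). Under the deposited scale and under both others the median log2 fold change of genes with a kept peak was at or below that of all genes. Calls of genes named below that ended under one of these scalings are given beside the gene.

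Of the genes with a kept peak that met the rule for named genes, given under the processing, Dnm1 rose most with crotonate on the log2(TPM + 1) scale. Dnm1, the dynamin of synaptic vesicle recycling, stood at 8.31, 7.75, 5.96 and 6.18 TPM in the controls, 38.8, 40.9, 40.8 and 34.3 TPM with crotonate and 39.7, 39.0, 38.5 and 40.2 TPM with MS-275. Its treated libraries were all above the controls and lay together, at 5.48-fold with crotonate (log2 fold change on the log2(TPM + 1) scale 2.31, SE 0.09, limma adjusted p = 6.4e-09) and 5.58-fold with MS-275. Atp9a, a phospholipid flippase of endosomes whose kept peak fills much of the printed promoter, stood at 12.4, 13.6, 12.8 and 15.4 TPM in the controls, 50.6, 56.7, 53.8 and 50.4 TPM with crotonate and 61.5, 61.1, 56.2 and 60.5 TPM with MS-275. No treated library of Atp9a came near a control, and the log2 fold changes were 1.89 (SE 0.07) and 2.07 (SE 0.07). Plin3, which coats lipid droplets, rose from 1.17 ± 0.127 TPM to 6.57 ± 0.200 TPM with crotonate and 10.5 ± 1.22 TPM with MS-275 (SD, n = 4 each). Adam23, a membrane protein of neurons, rose 3.92-fold with crotonate and Mfap2, a microfibril protein, 3.60-fold, each with all 4 libraries above the controls. Fbxo2, a neuronal F-box protein, rose 3.13-fold, and Immp2l, a mitochondrial peptidase, 3.31-fold with a wide spread of 8.19 to 23.9 TPM.

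With MS-275 Fabp3, a fatty acid-binding protein, had the largest increase of the named genes with a kept peak on the log2(TPM + 1) scale, while as a ratio of mean TPM Plin3 rose more, 9.04-fold against 7.65-fold. Fabp3 stood at 4.22, 9.38, 6.88 and 8.27 TPM in the controls, 20.7, 33.7, 25.7 and 23.2 TPM with crotonate and 45.2, 71.8, 50.8 and 52.3 TPM with MS-275. The 3 groups did not overlap, and the log2 fold changes were 1.74 (SE 0.21, limma adjusted p = 2.9e-05) and 2.80 (SE 0.21, limma adjusted p = 1.6e-07). Tox2, an HMG-box transcription factor, stood at 2.2, 4.42, 2.2 and 3.37 TPM in the controls, 7.59, 8.72, 8.93 and 10.4 TPM with crotonate and 18, 22.3, 20.1 and 24.8 TPM with MS-275. It too separated into 3 levels without overlap, 2.93-fold and 7-fold above the control mean. Myadm, a membrane protein of the myeloid and other lineages, rose 4.27-fold with MS-275 and 1.83-fold with crotonate, Ndrg2, a gene of astrocytes and of differentiating cells, 4.02-fold and 2.16-fold, and the long noncoding RNA Miat 4.31-fold and 2.64-fold. For Miat the fourth control (8.91 TPM) was above the other 3 (2.57 to 4.09 TPM) and below all treated libraries.

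Birc5, Ttk and Hmgn2 were among the genes with a kept peak that fell with both treatments. Birc5, survivin of the chromosomal passenger complex, stood at 165, 167, 169 and 160 TPM in the controls, 101, 90.1, 99.0 and 106 TPM with crotonate and 51.6, 49.9, 60.1 and 60.5 TPM with MS-275. The 3 groups did not overlap, with log2 fold changes of -0.74 (SE 0.07, limma adjusted p = 2.7e-06) and -1.56 (SE 0.07, limma adjusted p = 1.4e-09). Ttk, the spindle checkpoint kinase, fell to 0.625 of the control mean with crotonate and to 0.335 with MS-275. Birc5 and Ttk belong to the list of G2/M and mitosis. Of its 28 members without a kept peak 27 fell with crotonate and 28 with MS-275. The medians of these 28 were -0.61 and -1.53 on the log2 scale, so the fall was not limited to genes with a kept peak. Hmgn2, a nucleosome-binding protein, stood at 915, 887, 945 and 877 TPM in the controls, 656, 572, 585 and 673 TPM with crotonate and 305, 293, 310 and 327 TPM with MS-275. The groups again lay apart, at 0.686 and 0.341 of the control. Prr18, a gene expressed in oligodendrocytes, stood at 77.3, 75.1, 76.0 and 78.1 TPM in the controls, 52.3, 53.8, 53.2 and 50.1 TPM with crotonate and 23.2, 22.2, 21.0 and 26.6 TPM with MS-275, a fall of 1.68 (SE 0.06) on the log2 scale with MS-275. Phf19, a Polycomb partner, and Tedc1, a centriole protein, fell to 0.410 and 0.395 with MS-275, and Brpf3, a scaffold of acetyltransferase complexes, to 0.343.

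Among the named genes that fell most with crotonate, Aldoc, an aldolase of astrocytes and radial glia, stood at 90.8, 51.3, 66.3 and 68.7 TPM in the controls, 47.4, 29.0, 40.0 and 35.5 TPM with crotonate and 80.8, 45.6, 61.3 and 58.5 TPM with MS-275. The crotonate libraries were all below the controls, at a log2 fold change of -0.84 (SE 0.20, limma adjusted p = 0.00348). The MS-275 libraries overlapped the controls (log2 fold change -0.17, limma adjusted p = 0.470), and replicate 2 was lowest in all 3 groups. With the replicate number as a block the MS-275 difference had a limma adjusted p of 0.00646. Ap4s1, a subunit of the AP-4 adaptor, fell to 0.625 with crotonate and 0.276 with MS-275, and Atf4, at the strong forebrain H3K9cr peak, to 0.629 and 0.542. Rcbtb2 fell to 0.665 and 0.346, and Ptpmt1, a mitochondrial phosphatase, to 0.654 and 0.578. Cplx2, a complexin of synaptic vesicle release, fell to 0.309 of the control with MS-275, from 32.3 ± 2.74 to 9.98 ± 1.31 TPM (SD, n = 4 each), and stood at 39.6 ± 4.68 TPM with crotonate, where 1 library lay among the controls. Its crotonate call (0.28, limma adjusted p = 0.0376) was lost with median-of-ratios scaling (limma adjusted p = 0.237) and with quantile normalization (0.0882). The call was also lost with no filter on low values (0.0763) and without control 1, 2 or 4 or crotonate 1, 2 or 3 (0.0522 to 0.106).

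**Figure D4:**
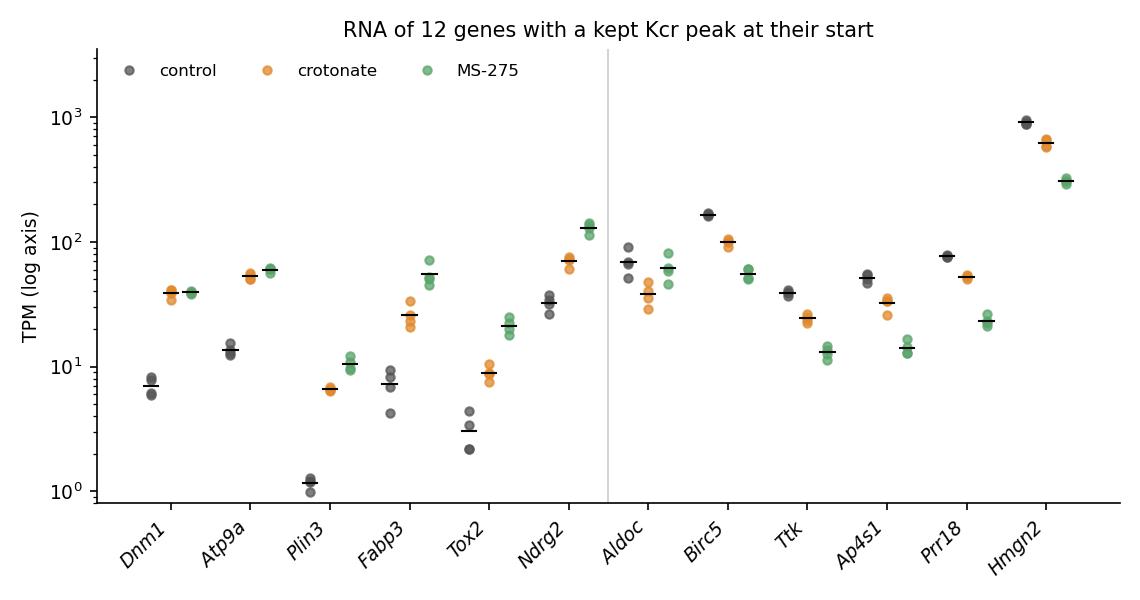
RNA level in TPM (vertical axis, log scale) of 12 genes with a kept Kcr peak within 1 kb of a start, in 4 control (grey), 4 crotonate (orange) and 4 MS-275 (green) libraries, with the group mean as a black line. The 6 genes left of the line rose with both treatments, from means of 1.17 to 32.4 TPM in the controls. Of the 6 to its right Hmgn2 is the most abundant, and Aldoc alone has MS-275 libraries among the controls.

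**Figure D5:**
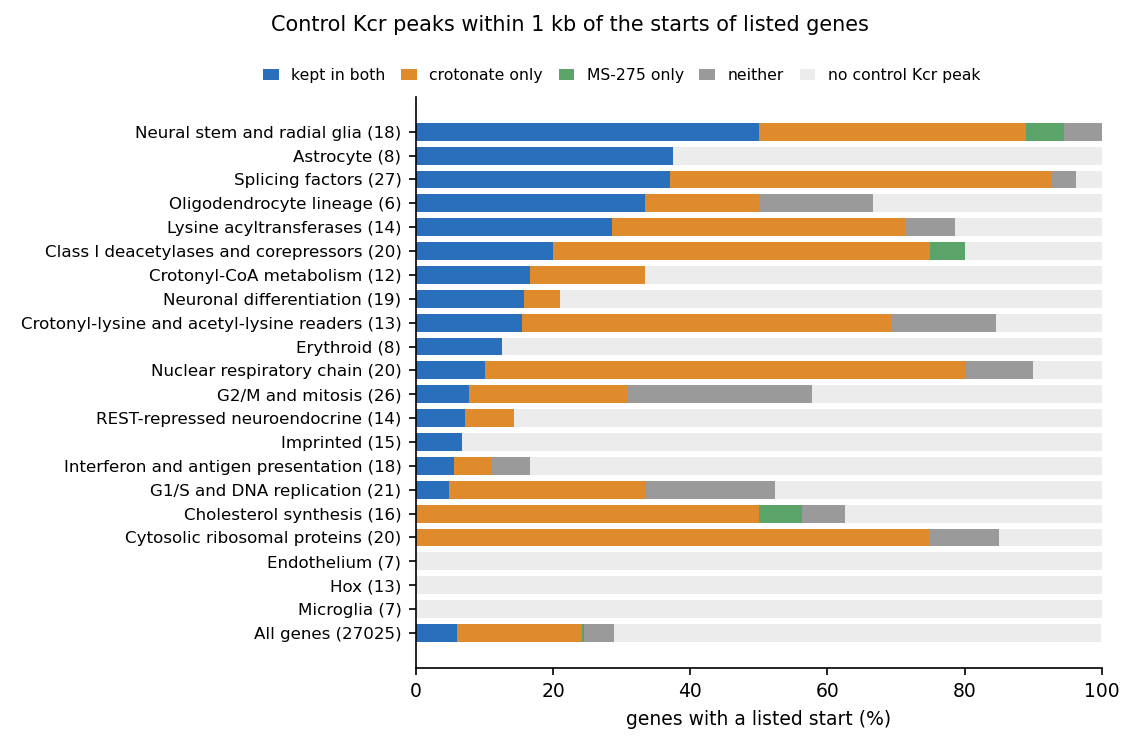
Percent of the genes of each list with a listed start (horizontal axis, number in brackets) that have within 1 kb of it a kept Kcr peak (blue), otherwise one met with crotonate only (orange), with MS-275 only (green), in neither list (grey), or no control Kcr peak (pale). Kept peaks lie at 50.0% of the neural stem list and 37.0% of the splicing list, at none of the ribosomal list, and at 5.94% of all genes.

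Kept peaks were spread unevenly over the gene lists that were examined. They lay at 9 of 18 neural stem and radial glial genes, 3 of 8 astrocyte genes, 10 of 27 splicing factors, 2 of 6 genes of the oligodendrocyte lineage, 4 of 14 lysine acyltransferases and 4 of 20 genes of class I deacetylases and their corepressors, beside 5.94% of all genes with a listed start and 12.7% of the tested genes that had one. They lay at none of 20 cytosolic ribosomal protein genes, 15 of which had a peak met with crotonate only, none of 16 genes of cholesterol synthesis, none of 13 Hox genes, and none of 7 microglial and 7 endothelial genes. The remaining lists had kept peaks at 2 of 26 genes of G2/M and mitosis, 1 of 21 of G1/S and DNA replication, 2 of 20 of the nuclear respiratory chain, 2 of 13 acyl-lysine readers, 2 of 12 of crotonyl-CoA metabolism, 3 of 19 of neuronal differentiation, 1 of 14 repressed by REST, 1 of 18 of interferon and antigen presentation, 1 of 15 imprinted and 1 of 8 erythroid genes (Klf1, under 1 TPM in every NSPC library). When any touch of the gene's extent or 1 kb beyond counted, a choice made after seeing the data, 13 of 25 neural stem, 11 of 30 splicing and 5 of 30 ribosomal genes had a kept peak. Tested genes without a control Kcr peak had a median of 6.68 TPM in the controls against 28.5 TPM for those with a kept peak, and no list was tested for its share.

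Of the 9 neural stem genes with a kept peak 3 passed the test with crotonate and 5 with MS-275, where 48.1% and 65.1% of all tested genes did. Sox2, a core transcription factor of neural stem cells, stood at 262, 277, 263 and 290 TPM in the controls, 295, 293, 271 and 288 TPM with crotonate and 276, 281, 247 and 276 TPM with MS-275. The 3 groups overlapped, and neither difference passed (limma adjusted p = 0.251 and 0.765), although with quantile normalization Sox2 was higher with crotonate (0.14, limma adjusted p = 0.0312) and with median-of-ratios scaling lower with MS-275 (-0.12, limma adjusted p = 0.0270). Notch1 and Notch2, receptors that hold progenitors undifferentiated, rose with MS-275, Notch1 from 51.6, 53.3, 51.1 and 69.2 TPM to 103, 86.5, 92.6 and 95.5 TPM (log2 fold change 0.74, SE 0.10, limma adjusted p = 3.7e-05). No MS-275 library of Notch1 overlapped the controls. Notch2 rose by 0.70 (SE 0.07) on the log2 scale. With crotonate neither passed, but Notch2 was lower with median-of-ratios scaling (-0.24, limma adjusted p = 0.0129) and with quantile normalization (-0.42, limma adjusted p = 3.4e-04). Egfr, the receptor of the EGF in the medium, fell with crotonate from 89.8 ± 4.80 to 75.1 ± 3.80 TPM (SD, n = 4 each, limma adjusted p = 0.00513). Msi2, an RNA-binding protein of progenitors whose crotonate call ended with median-of-ratios scaling (limma adjusted p = 0.183) and whose MS-275 call ended with quantile normalization (limma adjusted p = 0.250), stood at 112 ± 5.19 TPM in the controls, 129 ± 3.04 TPM with crotonate and 102 ± 4.59 TPM with MS-275, and Lhx2, a patterning factor, at 63.9 ± 5.38, 63.6 ± 5.02 and 54.9 ± 4.88 TPM. The MS-275 difference of Lhx2 (-0.22, limma adjusted p = 0.0270) missed the threshold without control 1 or 4 or without MS-275 replicate 3 (limma adjusted p = 0.0525 to 0.0839), with no filter on low values (0.0529) and with quantile normalization (0.104). In all 2 rose and 1 fell with crotonate, and 3 rose and 2 fell with MS-275, and with median-of-ratios scaling these counts were 0 and 3, and 2 and 3. With quantile normalization 4 rose and 2 fell with crotonate, and 3 rose and none fell with MS-275.

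Slc1a3, the glutamate transporter of radial glia, stood at 512, 383, 444 and 439 TPM in the controls, 585, 449, 533 and 534 TPM with crotonate and 505, 395, 409 and 490 TPM with MS-275. The groups overlapped and the crotonate difference of 0.24 missed the threshold (limma adjusted p = 0.0772), but passed with the replicate number as a block (limma adjusted p = 0.00144), with quantile normalization (0.0130) and without control 1 (0.0308) or crotonate 2 (0.0286). Olig2, a factor of ventral progenitors and oligodendrocyte precursors, stood at 605, 621, 607 and 622 TPM in the controls, 639, 675, 643 and 635 TPM with crotonate and 690, 662, 661 and 693 TPM with MS-275, above all controls in each treated library. Its level in the forebrain library was 30.4 TPM. The crotonate difference of 0.08 (SE 0.03, limma adjusted p = 0.0391) turned to -0.05 with median-of-ratios scaling and missed the threshold without control 1, 2 or 3 or without crotonate 2 or 3, with no filter on low values and without the trend (limma adjusted p = 0.0547 to 0.118). The MS-275 difference of 0.14 passed (SE 0.03, limma adjusted p = 8.4e-04), but not with median-of-ratios scaling (limma adjusted p = 0.246).

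In NSPCs splicing factors with a kept peak fell together. All 10 (Srsf1, Srsf2, Srsf3, Srsf6, Srsf7, Hnrnpa2b1, Hnrnpf, Hnrnpk, Ptbp1 and Ddx39b) fell with crotonate and with MS-275, with medians of -0.28 and -0.56 on the log2 scale, and all 10 did so under median-of-ratios scaling and under quantile normalization. On the deposited scale 15.9% of all tested genes fell with crotonate and 27.6% with MS-275. Of the 20 members of the list without a kept peak 16 fell with crotonate and 19 with MS-275, with medians of -0.22 and -0.51, so the fall was not limited to genes with a kept peak. Hnrnpa2b1, which binds RNA in splicing and transport, stood at 2056, 2128, 2221 and 2025 TPM in the controls, 1731, 1818, 1836 and 1932 TPM with crotonate and 1357, 1341, 1305 and 1313 TPM with MS-275. Its 3 groups did not overlap. Ptbp1, a splicing repressor of progenitors whose decline accompanies neuronal differentiation, stood at 173, 185, 179 and 187 TPM in the controls, 140, 133, 147 and 131 TPM with crotonate and 89.6, 91.9, 95.9 and 93.7 TPM with MS-275. It fell by 0.39 (SE 0.04, limma adjusted p = 1.0e-05) and 0.96 (SE 0.04, limma adjusted p = 1.7e-09) on the log2 scale. Srsf2, an SR protein, fell by 0.37 and 0.88.

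Genes that write, remove or read acyl marks had kept peaks of their own. Kat5, the catalytic subunit of the NuA4 acetyltransferase complex, stood at 58.0, 60.0, 58.8 and 71.5 TPM in the controls, 48.3, 45.2, 40.0 and 46.1 TPM with crotonate and 33.7, 28.6, 31.9 and 43.6 TPM with MS-275, and fell in both (limma adjusted p = 0.00500 and 2.6e-05). Its treated libraries were all below the controls. Kat2b, an acetyltransferase, fell with MS-275 from 16.4 ± 1.80 to 8.60 ± 0.360 TPM, and Ing5, a subunit of acetyltransferase complexes, from 9.12 ± 0.577 to 4.38 ± 0.297 TPM (SD, n = 4 each). Ep300, which encodes p300, stood at 28.3 ± 2.85, 30.6 ± 2.50 and 25.4 ± 3.88 TPM, with overlapping groups. Brd2, a BET protein that reads acetyl-lysine, stood at 159, 162, 165 and 175 TPM in the controls, 130, 135, 134 and 137 TPM with crotonate and 120, 113, 112 and 112 TPM with MS-275, and fell in both. Mllt3, the AF9 reader of crotonyl-lysine, did not pass in either (20.3 ± 4.61, 21.4 ± 2.94 and 22.7 ± 2.57 TPM). Members of these lists without a kept peak fell as well on the deposited scale. With MS-275 8 of 11 acyltransferase genes (0 rose) and 10 of 13 reader genes (1 rose) fell, where 27.6% of all tested genes did. With crotonate 4 of 11 (1 rose) and 4 of 13 (0 rose) fell, where 15.9% of all did.

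Hdac2, a class I deacetylase, stood at 231, 244, 231 and 226 TPM in the controls, 265, 272, 259 and 236 TPM with crotonate and 220, 228, 232 and 230 TPM with MS-275. With crotonate 3 of 4 libraries were above the controls (log2 fold change 0.14, limma adjusted p = 0.0156), a difference that missed the threshold with median-of-ratios scaling (limma adjusted p = 0.864) and without crotonate 2 (limma adjusted p = 0.0507). Rcor1, the CoREST scaffold, stood at 20.8 ± 1.18, 25 ± 0.759 and 19.1 ± 0.498 TPM, and Ncor1, a corepressor of nuclear receptors, at 186 ± 12.2, 174 ± 14.5 and 146 ± 11.4 TPM. Echs1, which hydrates crotonyl-CoA in mitochondria, fell from 72.9 ± 2.21 to 64.3 ± 2.45 TPM with crotonate and 54.4 ± 3.82 TPM with MS-275. Of 14 genes of crotonyl-CoA metabolism tested, 7 rose and 4 fell with crotonate, where 32.3% of all tested genes rose and 15.9% fell. Both genes of this list with a kept peak, Echs1 and the deacylase gene Sirt1, were among those that fell. The call of Sirt1 with crotonate (limma adjusted p = 0.0220) was lost without control 1 or 3 or without crotonate 2 or 3 (limma adjusted p = 0.0526 to 0.0661).

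Of the lists of differentiated cells, kept peaks lay at 15.8% of the neuronal, 37.5% of the astrocyte and 33.3% of the oligodendrocyte genes with a listed start, few genes in each case. Elavl3, a neuronal RNA-binding protein, stood at 20.9, 20.0, 21.5 and 23.4 TPM in the controls, 27.4, 26.9, 26.2 and 26.0 TPM with crotonate and 39.7, 38.1, 38.7 and 38.1 TPM with MS-275, in 3 levels without overlap. Its relative Elavl4 fell with MS-275 to 0.522 of 40.0 ± 3.49 TPM (SD, n = 4), so the pair went opposite ways there. Gja1, the connexin of astrocytes and radial glia, rose with crotonate from 26.9 ± 2.83 to 45.2 ± 4.42 TPM (SD, n = 4 each, limma adjusted p = 5.5e-05), and its MS-275 difference of 0.20 passed with the replicate number as a block (limma adjusted p = 0.0218) and not without it (limma adjusted p = 0.0883). Scn2a, a sodium channel gene repressed by REST outside neurons, stood at 1.52 ± 0.540 TPM in the controls and 3.37 ± 1.19 TPM with crotonate, above all controls in each library, a call lost with quantile normalization (limma adjusted p = 0.186). Nkx2-2 fell with MS-275 from 38.0 ± 3.46 to 20.8 ± 4.28 TPM (SD, n = 4 each). With crotonate it stood at 52.7 ± 11.3 TPM, and that call (limma adjusted p = 0.0362) was lost without control 1, 2 or 4 or without crotonate 2 or 4 (limma adjusted p = 0.0558 to 0.107), with no filter on low values (0.0812), with quantile normalization (0.0558) and with median-of-ratios scaling (0.126). Psmb10, a subunit of the immunoproteasome, fell to 0.738 and 0.597 of the control. Gnas, the imprinted gene of the stimulatory G protein, stood at 1203 ± 66.9, 1131 ± 54.5 and 1261 ± 37.5 TPM with overlapping groups.

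None of the 6 most abundant RNAs among genes with a kept peak differed by 2-fold or more. Ckb, brain creatine kinase, stood at 7162, 7940, 7173 and 8357 TPM in the controls, 8559, 9933, 8867 and 9880 TPM with crotonate and 9003, 10240, 9064 and 10397 TPM with MS-275, above all controls in each treated library. Its log2 fold changes of 0.28 and 0.34 passed on the deposited scale, but that of crotonate missed the threshold with median-of-ratios scaling (limma adjusted p = 0.0850) and both did with quantile normalization (0.0741 and 0.102). Ptma, prothymosin, fell with MS-275 to 0.857 of 2371 ± 85.6 TPM. Atp5b, the beta subunit of mitochondrial ATP synthase, fell with MS-275 to 0.782 of 3940 ± 247 TPM. Dbi, an acyl-CoA-binding protein, stood at 3330 ± 155, 3314 ± 267 and 3575 ± 144 TPM, and its MS-275 difference had a limma adjusted p of 0.112, or of 0.00975 with the replicate number as a block. Actg1, a cytoplasmic actin, stood at 2529 ± 74.4, 2432 ± 66.8 and 3013 ± 103 TPM (SD, n = 4 each for these genes).

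In forebrain explants, where the authors' deposited table compares crotonate with control, 1340 tested genes had a kept NSPC peak. The authors' deposited table calls 172 of them higher (12.8%, where 10.5% of 14494 genes are) and 182 lower (13.6%, where 9.76% are). By the authors' deposited table Birc5 was lower (log2 fold change -0.35, SE 0.06, adjusted p = 4.3e-07), as was Slbp, the stem-loop binding protein of histone RNAs (-0.27, SE 0.04, adjusted p = 1.9e-09), and both also fell in NSPCs. Olig2 was lower in the authors' deposited table (-0.80, SE 0.13, adjusted p = 8.8e-09) and Aldoc higher (0.30, SE 0.04, adjusted p = 2.1e-13). In NSPCs Aldoc fell, and the small Olig2 difference of 0.08 changed sign with the scaling. Of the 9 neural stem genes the authors' deposited table calls 4 lower, Olig2, Sox2 (-0.33, SE 0.03, adjusted p = 2.8e-23), Notch1 (-0.26, SE 0.03, adjusted p = 4.9e-19) and Msi2 (-0.13, SE 0.03, adjusted p = 9.5e-05), and none higher, and the other 5 did not pass. Of the 10 splicing factors the authors' deposited table calls 5 lower, among them Ptbp1 (-0.19, SE 0.03, adjusted p = 1.9e-11), and 2 higher, Srsf7 (0.12, SE 0.02, adjusted p = 2.9e-06) and Srsf3 (0.05, SE 0.02, adjusted p = 0.0103), both of which fell in NSPCs, and 3 did not pass. For Dnm1 and Atp9a the authors' deposited table gives -0.10 (SE 0.03) and -0.05 (SE 0.02), next to increases of 5.48-fold and 3.90-fold in NSPCs. Explants and NSPCs differ in strain, cell makeup and processing, and the difference between them was not tested. The direction of that table, crotonate against control, is known only from the name under which it was deposited.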

How the data were processed

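RNA-seq of NSPCs and forebrain and ChIP-seq peak lists were used as the authors deposited them, and DNA methylation, IgG and input libraries were not used here. The submitters' processing notes name the build GRCm38 and the tools Bowtie2 2.3.5.1, MACS2 2.2.5, Salmon 1.0.0 and DESeq2 1.26.0, and how peaks of the NSPC lists were filtered is not given in the sources used here. The deposited RNA table gives TPM for 12 libraries of NSPCs and 1 of forebrain, without read counts, so depth is unknown. The explant table of the authors holds the mean of normalized counts (signal), log2 fold changes with SE, a Wald score, and p-values with adjusted values, per the file headers. For each forebrain peak the authors give its summit's enrichment ratio over background, -log10 p, -log10 q and a score. NSPC lists hold positions alone.

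The members and the gene lists were chosen with earlier results of these data known. Overlaps of 1 bp or more were counted with bedtools 2.31.1. Gene starts came from a RefSeq table (GRCm38.p6) of 27025 genes with no entry on chromosome 18, and a gene carried a peak that lay within 1 kb of a start. log2(TPM + 1) of genes with 1 TPM or more in 4 or more of 12 libraries was fitted with limma 3.58.1 (R 4.3.3, eBayes with trend, 3 groups in 1 fit), two-sided, with Benjamini-Hochberg adjustment over 14857 genes and a threshold of 0.05. The replicate numbers pair the libraries: with group means removed, the 12 same-number correlations lay between 0.119 and 0.241, and the 36 others between -0.197 and 0.0993. The fit without a block was kept and the block was an alternative. For the explants 14494 genes above the lowest mean count with an adjusted p under 1 were taken as tested.

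Named genes are, per treatment and direction, the 8 genes with a kept peak and the largest called fold change whose libraries all lie beyond the controls, with a mean of 5 TPM or more on the higher side and leaving out predicted genes, the 6 most abundant, and up to 2 per gene list; other genes were added after their values were seen. Named regions are the 6 with the highest forebrain H3K9cr fold, the longest kept peaks and those just inside the rule. Overlap counts, the limma fit and the sequence masks were tested on simulated data. The labels call the RNA libraries replicates, and p-values measure the spread between them.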

Additional observations from a re-analysis of the deposited data

Results flagged for a closer look

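In 5 of 153 groups of 4 libraries of the named genes, 1 library stood apart from the other 3 by a gap that took up most of the group's range (Dixon's test at 95%), and chance flags about 1 group in 20. For Ap4s1 crotonate replicate 2 was lowest at 26.0 TPM (the others were at 33.7, 33.7 and 35.2 TPM). For Brd2 MS-275 replicate 1 was highest at 120 TPM (112, 112 and 113 TPM). For Kat5 control replicate 4 was highest at 71.5 TPM (58.0, 58.8 and 60.0 TPM). For Phf19 control replicate 2 was lowest at 15.1 TPM (16.6, 16.8 and 16.9 TPM). For Ptpmt1 crotonate replicate 1 was highest at 17.1 TPM (12.1 and 12.4 TPM, and the lowest at 12 TPM). These libraries carry different numbers and groups, and the calls of these 5 genes did not change when the library was left out.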

How the results depend on the processing

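With 50% of the control peak required in each treated list, 8.63% of control Kcr peaks were kept, and among control peaks of 500 bp or more 36.7% were. With 50% of a kept peak covered, 87.3%, 82.7% and 31.1% lay under Kac of control, crotonate and MS-275, 62.6% under H3K9cr and 76.6% under H3K9ac, and with forebrain peaks of -log10 q of 10 or more 57.1% and 75.4%. Members chosen by 50% of the control peak gave 44.9% under Kac of MS-275, 61.2% at a gene, 172 genes lower with crotonate, 297 lower with MS-275, and 107 higher and 97 lower in explants. The share at a gene was 13.1% with no window, 66.5% with 5 kb, and 89.9% by gene extent and 1 kb beyond, an alternative chosen after seeing the data that gave 721 genes higher with MS-275. Median-of-ratios scaling gave 261 genes higher and 505 lower with crotonate and turned Olig2 to -0.05, and an adjusted p of 0.01 gave 114 higher in explants. The cause of these shifts was not tested.

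With the replicate number as a block the counts were 443 higher and 299 lower with crotonate and 474 and 511 with MS-275. Among genes named by the rule or held by a list with a kept peak, the block changed the calls of Aldoc, Dbi and Gja1 with MS-275 and of Slc1a3 with crotonate and no other. Leaving out 1 library gave 371 to 410 higher and 247 to 263 lower with crotonate, and 428 to 452 and 466 to 484 with MS-275. No paired analysis was possible because the deposited values are not per library in the case of the explants. Of 1428 values of named genes under alternatives 1371 kept direction and side of the threshold, and 11 of 81 called pairs of gene and treatment lost the call under some alternative. Depth is unknown for RNA and peaks, so a peak missing from a list was not detectable there, which does not show that the mark is absent.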
